A study of Mus musculus with 22 samples.

Results

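The 4 tissue inhibitors of metalloproteinases, Timp1, Timp2, Timp3 and Timp4, and Reck, a membrane-anchored inhibitor, were followed across mouse aortic smooth muscle cells and aortic tissue. The members were all probe sets annotated to exactly 1 of these symbols, which gave 14 of 45101 probe sets and 5 of 18193 genes. Each gene was represented by its brightest probe set, judged by the mean of all 22 arrays. Timp1 and Reck had 1 probe set each, Timp2 had 6, Timp3 had 4 and Timp4 had 2.

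RNA was measured on Affymetrix Mouse Genome 430 2.0 arrays. The 14 cell arrays hold cultured smooth muscle cells from the suprarenal aorta of mice lacking tenascin C (TNC), a matrix glycoprotein made at sites of vascular injury and load. The cells received nothing (unstimulated, 3 arrays), 10 ng/mL tumour necrosis factor alpha for 24 h (TNF, 3 arrays), 10 µg/mL exogenous TNC (4 arrays) or TNC and TNF together (4 arrays). Every cell group, the unstimulated one included, therefore carried the knockout, and whatever may have been purified together with TNC cannot be told apart from TNC itself. The 8 tissue arrays each hold pooled RNA from the aortas of male C57BL/6 mice, wild type (WT) or Tnc knockout (KO), from the suprarenal or the infrarenal segment. Untreated pools hold 5 mice. The treated pools hold 8 mice that received 0.5 M CaCl2 around the infrarenal aorta and angiotensin II at 1 µg/min/kg for 1 week, a treatment called CaAngII here. One array stands for each combination, so the tissue comparisons have no replicates and no test.

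TIMPs are small secreted proteins that block the active site of matrix metalloproteinases (MMPs), which cut collagen, elastin and other matrix proteins of the arterial wall. Timp1 is the member that cytokines induce in many cells, Timp2 is widely expressed and also takes part in the activation of pro-MMP2 by MMP14, and Timp3 binds to the matrix and inhibits ADAM17 and the ADAMTS proteases as well. Timp4 has the most restricted expression and is known from heart, vessels and fat. Reck is anchored in the cell membrane and restrains MMP2, MMP9 and MMP14.

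The promoter windows of Timp1, Timp3 and Reck are shown because these 3 members were called both with TNF alone and with TNC alone, Timp1 upward and the others downward. The sequences are RefSeq's in build GRCm38.p6, 5′ to 3′ on the gene's own strand, the 250 bases before the start that RefSeq's promoter table sets, and capitals mark the GC box GGGCGG on either strand. For Reck the gene record begins at base 43875521, inside the window shown.
Timp1, chrX:20869916-20870165, plus strand: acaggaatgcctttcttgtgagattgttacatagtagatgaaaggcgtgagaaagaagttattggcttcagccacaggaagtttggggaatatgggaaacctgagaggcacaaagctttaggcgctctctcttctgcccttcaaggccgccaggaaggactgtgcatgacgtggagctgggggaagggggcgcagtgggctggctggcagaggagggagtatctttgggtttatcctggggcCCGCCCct
Timp3, chr10:86300162-86300411, plus strand: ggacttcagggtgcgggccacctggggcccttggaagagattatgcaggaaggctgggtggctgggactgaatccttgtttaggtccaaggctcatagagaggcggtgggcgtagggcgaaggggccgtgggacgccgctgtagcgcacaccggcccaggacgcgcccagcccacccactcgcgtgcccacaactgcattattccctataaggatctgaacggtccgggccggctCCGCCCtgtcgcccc
Reck, chr4:43875280-43875529, plus strand: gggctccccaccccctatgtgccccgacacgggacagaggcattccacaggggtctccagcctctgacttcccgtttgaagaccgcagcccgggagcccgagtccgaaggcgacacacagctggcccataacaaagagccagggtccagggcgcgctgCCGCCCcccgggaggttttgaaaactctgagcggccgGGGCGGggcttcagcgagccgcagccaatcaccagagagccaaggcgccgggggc
The GC box was present in 35.7% of the 32851 promoter windows in the table, each 250 bases before to 50 bases after a gene start. It was found in the windows of Timp1, Timp2, Timp3 and Reck and not in that of Timp4. The AP-1 motif TGANTCA (7.81% of all windows), the STAT motif TTCNNNGAA (8.30%), the C/EBP motif TTGCNNAA (10.8%), TATAAA (13.6%) and the NF-kB motif (8.46%), all read on both strands, had no match in the windows of the 5 members. The related word TGAGTAA, present in 2.68% of windows, occurred 1 time, from base 27 to base 33 after the start of Timp1.
Timp1, chrX:20870184-20870206, plus strand, TGAGTAA in capitals: tgggtggaTGAGTAAtgcgtcca
By the RefSeq positions, Timp1 lies inside the synapsin gene Syn1, Timp4 inside Syn2 and Timp3 inside Syn3.

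The deposited values are array intensities on a linear scale, and every level below is in that unit. The arrays had been scaled alike: the trimmed mean of each was 500.0, while medians were 51.0 to 64.6 in cells and 119 to 134 in tissue, so cells and tissue are described separately. Tnc itself was 1805 to 2699 in the 4 WT pools, 257 to 489 in the 4 KO pools, and averaged 78.0 to 122 in the 4 groups of KO cells. The unstimulated cells showed the smooth muscle markers Acta2 at 22235 to 23322 and Tagln at 14105 to 14268, but the contractile marker Myh11 at only 266 to 407. Endothelial markers were also present there, with Pecam1 at 3097 to 3324 and Emcn at 11809 to 14206. The summed smooth muscle markers were 40165 to 41745 in unstimulated cells, 23628 to 25668 under TNF, 32092 to 35261 under TNC and 24109 to 27175 under both. The endothelial sums were 18532 to 21128, 17042 to 18131, 20134 to 21697 and 16377 to 17952 in the same groups. The 7 fibroblast markers summed to 36620 to 37584 in unstimulated cells and to 43492 to 45196 under TNF. Under TNC they reached 47726 to 51939 and under both 48888 to 55087. The 10 macrophage markers summed to 879 to 1365, 997 to 1061, 2120 to 3148 and 2269 to 2400 in the same groups. The 6 lymphocyte markers summed to at most 122 on a cell array.

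Cell changes are given on the log2 scale, each followed by its standard error (SE), from 1 limma fit of 15534 genes on 14 arrays, and adjusted p-values are Benjamini-Hochberg over all 15534 genes. A change was called at an adjusted p under 0.05. All 5 members passed the filter on dim genes, and Timp4 did so on 7 of 14 arrays, 3 of them unstimulated and none under TNF. A gene that passes mainly where it is higher has to differ, so the counts that follow are over the other 4 members. TNF without TNC gave 1 rise and 3 falls, where 34.6% of all genes were called, 14.3% higher and 20.3% lower. TNF added to TNC gave 1 rise and 2 falls (22.1% of all genes, 9.60% higher and 12.5% lower). TNC without TNF gave 1 rise and 2 falls (31.8%, 16.1% higher and 15.7% lower), and TNC added to TNF again 1 rise and 2 falls (28.2%, 16.3% and 11.9%). Both factors against none gave 1 rise and 3 falls (43.3%, 20.7% and 22.5%). The rise was Timp1 in each of these 5 comparisons. TNC against TNF gave 1 higher and 1 lower of the 4 (28.6%, 18.2% and 10.4%). The interaction, the TNF effect with TNC minus that without, also gave 1 of each (18.8%, 9.81% and 9.01%).

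For the 2 TNF and 2 TNC effects, every called member of these 4 also had groups whose arrays did not overlap. With TNF alone that was 1 member upward (20.5% of all genes) and 3 downward (29.5%). With TNF added to TNC it was 1 upward (10.0%) and 2 downward (13.3%), with TNC alone 1 (19.8%) and 2 (20.9%), and with TNC added to TNF 1 (20.0%) and 2 (16.1%). For TNC against TNF it was 2 upward (23.9%) and 2 downward (14.7%), of which 1 each was called.

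**Figure D1:**
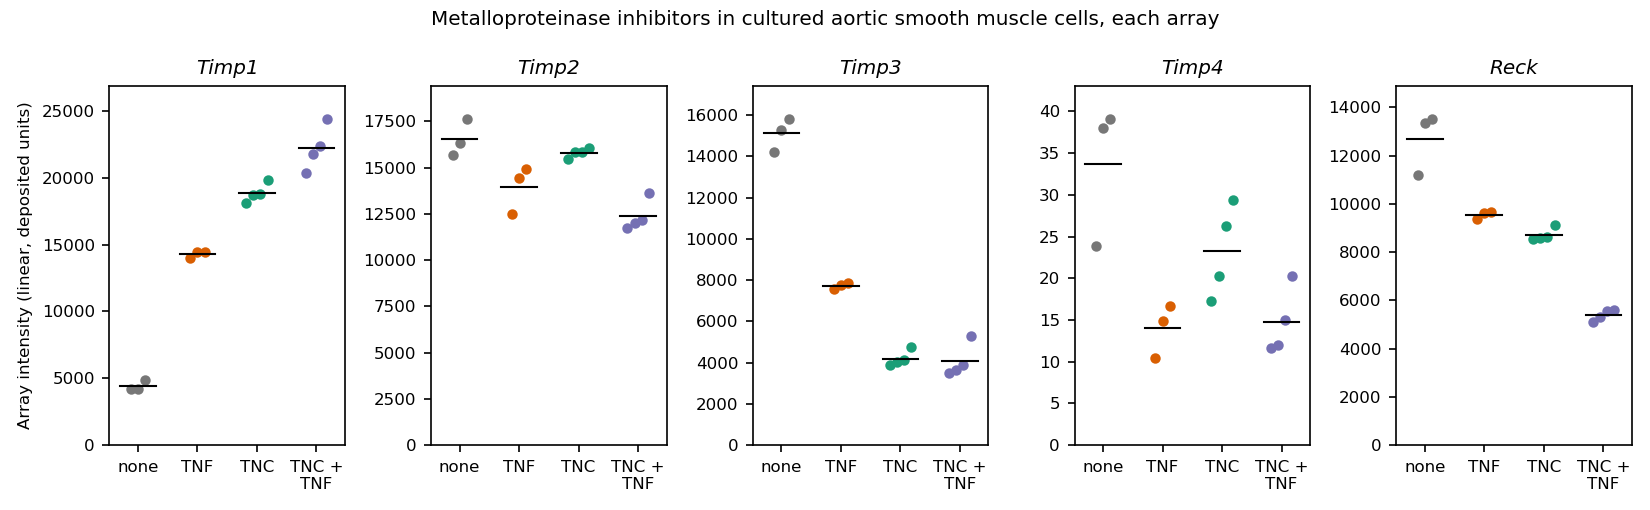
Intensity on a linear axis from 0 for each of 14 arrays of cultured aortic smooth muscle cells, with 1 panel and 1 scale per gene, points for arrays and bars for group means. Timp1 climbs from a mean of 4426 without factors to 22231 with both, Timp3 falls from 15120 to 4074 and Reck from 12700 to 5391, while Timp4 stays at or below 39.1.

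Timp1, the cytokine-inducible inhibitor, was the member that rose with each factor. Its intensities were 4886, 4181 and 4212 in unstimulated cells, and 13963, 14430 and 14443 under TNF. Under TNC they were 18099, 18767, 19852 and 18675, and under both factors 24427, 22360, 20386 and 21753. No 2 of the 4 groups overlapped. TNF without TNC raised Timp1 3.23-fold (log2 1.69, SE 0.08, adjusted p = 1.87e-08), and TNC without TNF raised it 4.27-fold (log2 2.09, SE 0.07, adjusted p = 3.14e-09). TNC raised it further in the presence of TNF, 1.55-fold (log2 0.64, SE 0.07, adjusted p = 8.03e-05). TNC alone gave more Timp1 than TNF alone (log2 0.40, SE 0.07, adjusted p = 0.00159). In cells that already had TNC, TNF added only 1.18-fold (log2 0.24, SE 0.07, adjusted p = 0.0261), a call that was lost with quantile normalization (log2 0.15, adjusted p = 0.0860) and without any 1 of 5 single arrays (TNC replicates 1, 2 and 4 and replicates 1 and 2 with both factors), with adjusted p up to 0.0732.

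The TNF effect on Timp1 was smaller with TNC than without it (difference of the log2 changes -1.46, SE 0.10, adjusted p = 3.00e-06). With both factors Timp1 stood at the 99.7th to 99.8th percentile of its arrays, and the brightest probe set on any cell array read 26914 to 33291. The part of the upper end of the scale in this difference was not tested.

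Timp3, the matrix-bound inhibitor, moved the other way. It read 15836, 14220 and 15303 in unstimulated cells and 7556, 7786 and 7858 under TNF. TNC brought it to 4025, 3885, 4741 and 4131, and both factors to 3902, 3619, 3481 and 5296. The unstimulated and TNF groups lay apart from each other and from both groups with TNC, and the 2 groups with TNC overlapped. Timp3 fell 1.95-fold with TNF (log2 -0.97, SE 0.14, adjusted p = 0.000183) and 3.61-fold with TNC (log2 -1.85, SE 0.13, adjusted p = 1.09e-06). It was lower under TNC than under TNF (log2 -0.89, SE 0.13, adjusted p = 0.000335). TNF did not change it detectably once TNC was present (log2 -0.06, SE 0.12, adjusted p = 0.784), with a 95% interval from -0.32 to 0.20. The TNF effects with and without TNC differed by 0.91 (SE 0.18, adjusted p = 0.00465).

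All 4 probe sets of Timp3 gave the same calls: each fell with TNF without TNC, with TNC without TNF and with TNC added to TNF, and none changed with TNF added to TNC. The falls with TNC ran from -1.85 to -2.89 and those with TNF from -0.97 to -1.72, each time least on the brightest probe set and most on the dimmest. The dimmest, 1419088_at, averaged 4210 ± 262 (SD, n = 3) in unstimulated cells, 1279 ± 69.4 (n = 3) under TNF and 569 ± 51.2 (n = 4) under TNC. The size of the Timp3 fall therefore depended on the probe set, and its direction did not.

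**Figure D2:**
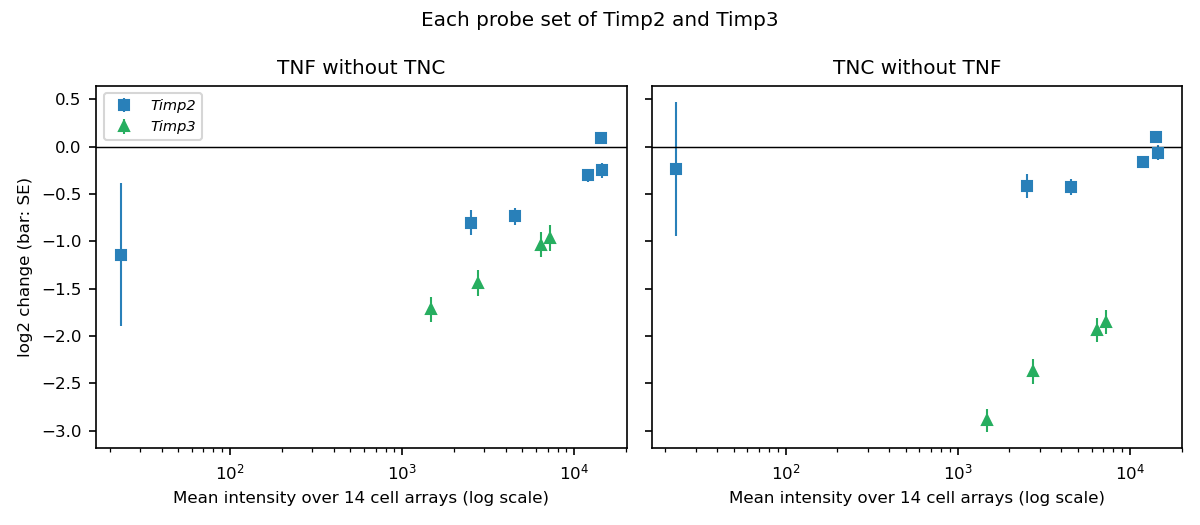
Log2 change with TNF (left) and with TNC (right) against the mean intensity over 14 cell arrays on a log axis, 1 point for each of 6 probe sets of Timp2 and 4 of Timp3, bars for the SE. All 4 Timp3 points lie below 0 and lower at lower intensity, while the Timp2 points spread from -1.14 to 0.11.

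Reck, the membrane-anchored inhibitor, fell with each factor and fell again when the other was added. Unstimulated cells read 11191, 13537 and 13373, and cells under TNF 9603, 9374 and 9669. The 4 arrays with TNC read 8535, 9109, 8636 and 8568, and the 4 with both factors 5564, 5291, 5613 and 5096. The 4 groups did not overlap. The change was -0.41 with TNF (SE 0.07, adjusted p = 0.00104) and -0.54 with TNC (SE 0.07, adjusted p = 0.000117). On top of TNC, TNF lowered it by a further log2 -0.69 (SE 0.06, adjusted p = 1.53e-05), and on top of TNF, TNC lowered it by log2 -0.83 (SE 0.07, adjusted p = 6.57e-06). Both factors together left it 2.35-fold below unstimulated cells (log2 -1.23, SE 0.07, adjusted p = 7.45e-08). TNC and TNF alone did not differ past the threshold (log2 -0.13, SE 0.07, adjusted p = 0.176) although their arrays did not overlap, with a 95% interval from -0.28 to 0.02. The interaction was -0.29 (SE 0.10, adjusted p = 0.0607), and it passed the threshold with a stricter filter (adjusted p = 0.0411) and with a variance trend (adjusted p = 0.0251).

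Smooth muscle markers fell in 3 of the comparisons in which Timp3 and Reck fell: 6 of 8 with TNF without TNC, 5 with TNC without TNF and 6 with both factors against none. With TNC added to TNF, where Timp3 and Reck fell too, 1 of the 8 fell. With TNF added to TNC, 6 of the 8 fell, as did Reck. Of all genes, 20.3%, 15.7%, 22.5%, 11.9% and 12.5% fell in these comparisons, in the order named. Their part in the falls of Timp3 and Reck was not tested. In a bulk sample fewer cells of a type and less RNA per cell cannot be told apart.

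Timp2, the widely expressed member that also helps activate pro-MMP2, changed by at most log2 -0.42 on its chosen probe set, with both factors. Its arrays read 15659, 16316 and 17645 unstimulated, 14905, 12472 and 14418 under TNF, 15868, 15841, 16036 and 15470 under TNC, and 13645, 11984, 12147 and 11710 under both. The arrays with TNF lay below those without TNF, with and without TNC. TNF lowered it by log2 -0.25 without TNC (SE 0.08, adjusted p = 0.0292) and by -0.36 with TNC (SE 0.07, adjusted p = 0.00331). The first of these calls was lost without unstimulated replicate 2 or 3 or without TNF replicate 2, where adjusted p reached 0.118, and with arrays centred on their medians (log2 -0.14, adjusted p = 0.423). TNC alone gave -0.06 (SE 0.07, adjusted p = 0.561, 95% interval -0.23 to 0.10).

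The 6 probe sets of Timp2 disagreed. With TNF without TNC, 4 fell and 2 did not pass the threshold. The second brightest, 1460287_at, gave 0.09 (SE 0.07, adjusted p = 0.366), whereas 1450040_at gave -0.73 (SE 0.09, adjusted p = 7.69e-05) and 1420924_at gave -0.80 (SE 0.13, adjusted p = 0.000774). Both of the latter also fell with TNC, by log2 -0.43 and -0.41. With both factors against none, 5 of the 6 probe sets fell, these 2 by log2 -0.89 and -1.13, while 1460287_at gave -0.015. A small or absent change of Timp2 thus held for its bright probe sets and not for the dimmer 1450040_at and 1420924_at.

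Timp4, the member of restricted expression, was near the bottom of the scale in the cells. It read 39.1, 23.9 and 38.0 in unstimulated cells, 10.5, 14.8 and 16.7 under TNF, 26.3, 29.4, 17.3 and 20.3 under TNC, and 11.6, 12.0, 15.0 and 20.2 under both, which is the 20.9th to 41.1st percentile of an array. The unstimulated arrays lay above those with TNF and above those with both factors. The fits gave -1.26 with TNF (SE 0.28, adjusted p = 0.00475) and -1.20 with both factors (SE 0.27, adjusted p = 0.00335). The second probe set, 1450974_at, gave -0.999 (adjusted p = 0.350) and -1.19 (adjusted p = 0.193) for the same comparisons. In the cells it was brighter than the chosen 1423405_at, with means over the cell arrays of 33.2 and 21.1. The calls thus rested on the probe set that was dimmer in the cells. Since the gene passed the filter mainly through the groups where it was higher, these calls are not counted among the falls above.

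**Figure D3:**
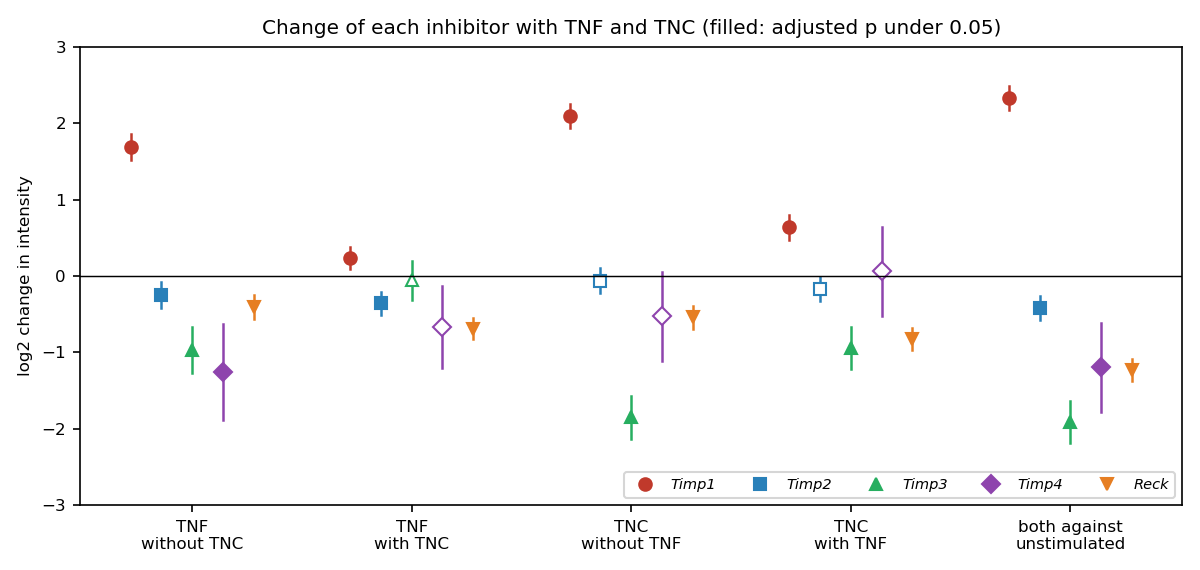
Log2 change of each gene in 5 comparisons of cell groups, with bars for the 95% interval of the fit and filled symbols for an adjusted p under 0.05. Timp1 lies above 0 in all 5, from 0.24 to 2.33, Reck lies below 0 in all 5, from -0.41 to -1.23, and Timp3 is near 0 only for TNF added to TNC.

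Ordered by their means, the groups ran unstimulated, TNF, TNC and both for Timp1 from low to high, and every neighbouring pair differed. For Timp3 and Reck the same order ran from high to low. The neighbours that did not differ past the threshold were TNC and both for Timp3, and TNF and TNC for Reck. For Timp2 the order was unstimulated, TNC, TNF and both from high to low, and no neighbouring pair differed past the threshold. For Timp4 it was unstimulated, TNC, both and TNF, again with no neighbouring pair past it.

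The enzymes these inhibitors act on moved in both directions. Of 16 tested MMPs, TNF without TNC raised 4 and lowered 5 (median log2 0.27, against -0.06 over all genes), and TNC without TNF raised 4 and lowered 2 (median 0.10, against -0.03). With TNC added to TNF, 5 rose and none fell (median 0.31, against 0.00). The shares of all genes higher and lower were 14.3% and 20.3%, 16.1% and 15.7%, and 16.3% and 11.9% in these comparisons, in that order. Mmp3, stromelysin, averaged 981 ± 247 (SD, n = 3) unstimulated, 3769 ± 468 (n = 3) under TNF, 18428 ± 1167 (n = 4) under TNC and 29671 ± 1366 (n = 4) under both, the last of these at the upper end of the scale. The collagenase Mmp13 ranged from 0.939 to 15.7 in unstimulated cells and from 9118 to 10239 with both factors.

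Values were also read for the enzymes that Timp2 and Reck restrain. Mmp2, the gelatinase that degrades basement membrane collagen, fell with TNF alone (log2 -0.27, SE 0.06, adjusted p = 0.00546), rose with TNC added to TNF (log2 0.61, SE 0.06, adjusted p = 1.83e-05) and gave 0.03 with TNC alone (adjusted p = 0.718). Mmp14, the membrane enzyme that activates pro-MMP2, rose with TNF (log2 0.28, SE 0.07, adjusted p = 0.00736) and with TNC (log2 0.41, SE 0.06, adjusted p = 0.000489). Mmp9, the other gelatinase, was at 3.59 to 26.6 in the 3 groups without the combination and at 86.7 to 130 with both factors.

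Among 20 tested ADAM and ADAMTS genes, to which the Timp3 targets belong, TNF raised 7 and lowered 4, and TNC raised 7 and lowered 5. Of all genes, TNF raised 14.3% and lowered 20.3%, and TNC raised 16.1% and lowered 15.7%. Adam17, the enzyme that sheds TNF from the cell surface, went from 1695 ± 137 (SD, n = 3) to 4053 ± 221 (n = 3) with TNF (log2 1.26, SE 0.07, adjusted p = 1.21e-07) and to 2642 ± 32.8 (n = 4) with TNC (log2 0.64, SE 0.07, adjusted p = 2.73e-05). The aggrecanases Adamts4 and Adamts5 rose with TNF by 2.37 (SE 0.25, adjusted p = 1.85e-05) and 0.86 (SE 0.10, adjusted p = 5.51e-05), and with TNC by 0.92 and 0.37 (adjusted p = 0.0106 and 0.0134). Adamts1 fell with TNF (log2 -1.16, SE 0.16, adjusted p = 0.000169) and with TNC (log2 -0.81, SE 0.15, adjusted p = 0.00183).

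Of 4 tested surface partners, Lrp1, a scavenger receptor for TIMPs and their complexes with enzymes, rose with TNC (log2 0.50, SE 0.11, adjusted p = 0.00594), and Itgb1, an integrin subunit, fell with TNC (log2 -0.26, SE 0.08, adjusted p = 0.0209) and with TNF (log2 -0.34, SE 0.08, adjusted p = 0.00602). Of 4 tested genes among other inhibitors and relatives of the TIMP domain, none was called with TNF or with TNC alone by limma. Of all genes, 34.6% were called with TNF alone and 31.8% with TNC alone. With both factors against none, 1 of the 4 rose and 1 fell (20.7% and 22.5% of all genes). The 3 synapsin genes that hold Timp1, Timp3 and Timp4 were not called in any of the 7 comparisons. Their median log2 change was still -1.11 with TNC alone and -1.14 for TNC against TNF. Being uncalled thus does not show that they were unchanged.

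Of 16 tested IL-6 family and AP-1 genes, which include known inducers of Timp1, 10 rose and 3 fell with TNF, and 11 rose and 2 fell with TNC. Over all genes 14.3% rose and 20.3% fell with TNF, and 16.1% rose and 15.7% fell with TNC. With TNC added to TNF 5 rose and 1 fell (16.3% and 11.9% of all genes). With TNF added to TNC, where Timp1 was called higher too, 2 rose and 4 fell (9.60% and 12.5% of all genes). The median log2 change was -0.21 there, against -0.01 over all genes. Il6 averaged 466 ± 75.0 (SD, n = 3) unstimulated, 6362 ± 680 (n = 3) under TNF, 11431 ± 1649 (n = 4) under TNC and 21448 ± 2099 (n = 4) under both. The interaction was called below 0 for 8 and above 0 for 2 of the 16 (9.01% and 9.81% of all genes).

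The 3 genes whose log2 values over the 14 cell arrays were most like those of Timp1 were Cebpb, Il6 and Slc41a2 (Pearson r = 0.997, 0.995 and 0.993). For Timp3 they were Synpo2, Nipa1 and Itgb3bp (r = 0.973, 0.966 and 0.963), for Reck Cdcp3, Flii and Mtss1 (r = 0.989, 0.984 and 0.977), for Timp2 Tmem64, Krt18 and Nfatc1 (r = 0.947, 0.941 and 0.933), and for Timp4 Krt19, Kif13b and Adgra2 (r = 0.927, 0.902 and 0.896). Between the members, r was -0.94 for Timp1 and Timp3, -0.82 for Timp1 and Reck, 0.79 for Timp3 and Reck and 0.82 for Timp2 and Reck. These values describe 14 arrays in 4 groups that share their treatments.

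In the aorta CaAngII went with more Timp1 in every pair of pools. Suprarenal Timp1 was 667 untreated and 2595 treated in WT, and 398 and 7437 in KO. Infrarenal Timp1 was 1106 and 10086 in WT, and 864 and 9796 in KO. The treated pool was 3.89-fold, 18.7-fold, 9.12-fold and 11.3-fold above its untreated partner, in that order. Timp1 was the only member at least 2-fold higher in any of these 4 pairs, where 3.61% (WT) and 5.13% (KO) of genes differed 2-fold or more suprarenally, and 17.7% and 17.4% infrarenally. By size of change it was 152nd of 11943 genes in the WT suprarenal pair and 37th of 11959 in the KO one.

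**Figure D4:**
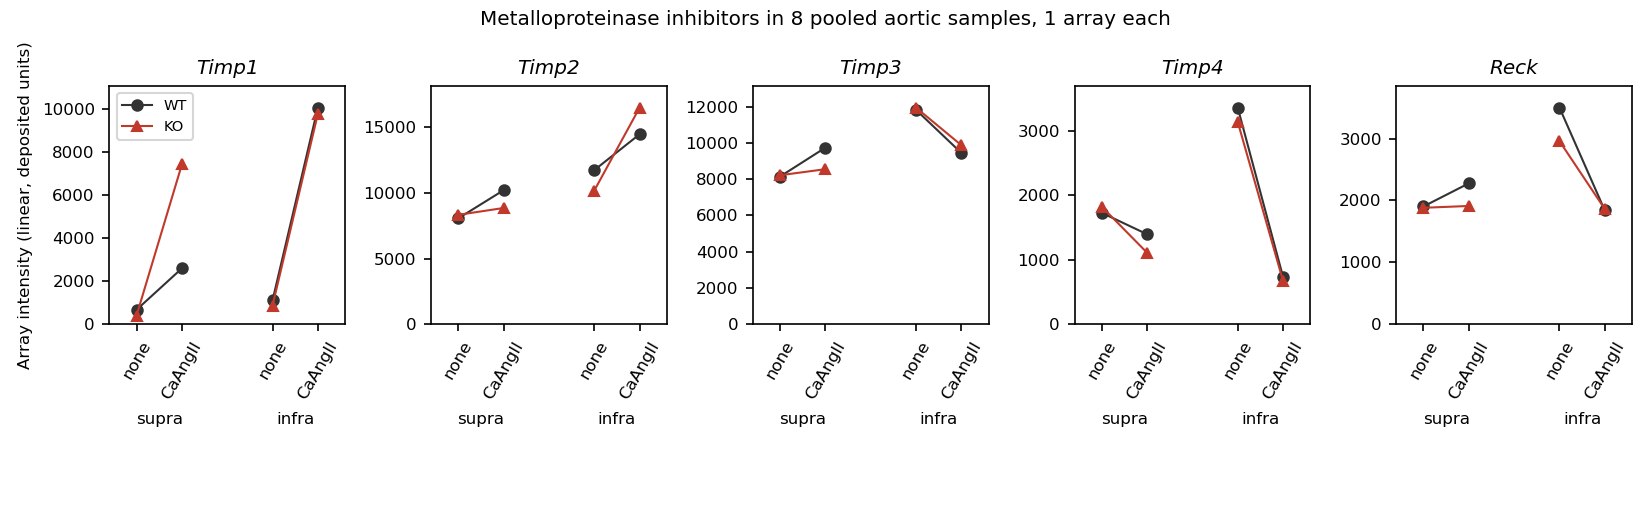
Intensity on a linear axis from 0 for 8 pooled aortic samples, 1 panel and 1 scale per gene, circles for WT, triangles for KO, lines joining untreated and CaAngII pools of a segment. Timp1 is higher in all 4 treated pools, Timp4 drops to 731 and 668 in the treated infrarenal pools, and the KO suprarenal treated pool (7437) stands above its WT partner (2595) for Timp1.

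Timp4 was lower with CaAngII in every pair. Infrarenal values were 3361 untreated and 731 treated in WT, and 3139 and 668 in KO, 4.59-fold and 4.70-fold lower with treatment. Suprarenal values were 1728 and 1395 in WT, and 1823 and 1108 in KO, 1.24-fold and 1.65-fold lower. Untreated, the infrarenal pools had more Timp4 than the suprarenal ones (log2 0.96 in WT and 0.78 in KO), and treated, they had less (log2 -0.93 and -0.73). The second probe set went the same way, with log2 ratios of -1.86 and -1.71 infrarenally and -0.30 and -0.63 suprarenally. Timp4 was the 1 member lower in all 4 pairs, as 15.0% of 12683 genes were.

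Reck had the same infrarenal direction as Timp4. It went from 3503 to 1839 in WT and from 2961 to 1861 in KO, while suprarenally it was 1904 untreated and 2278 treated in WT, and 1882 and 1911 in KO. The 4 treated pools, 1839 to 2278, lay below both untreated infrarenal pools. The log2 ratios were -0.93 and -0.67 infrarenally and 0.26 and 0.02 suprarenally.

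Timp3 and Timp2 varied less across the pools. Timp3 was 8144 and 9739 (WT) and 8217 and 8552 (KO) in untreated and treated suprarenal pools, and 11831 and 9448 (WT) and 11950 and 9878 (KO) in infrarenal ones. Its infrarenal ratios were -0.32 and -0.27, and its other 3 probe sets were below 0 there too, from -0.20 to -1.50. The small suprarenal KO ratio of 0.06 was not shared, as the other 3 probe sets gave -0.06 to -0.56. In the WT suprarenal pair the chosen probe set gave 0.26, 1449334_at and 1449335_at gave 0.12 and 0.25, and 1419088_at gave -0.32. Timp2 was higher with CaAngII in each pair on its chosen probe set: 8065 to 10209 and 8333 to 8853 suprarenally, and 11741 to 14478 and 10182 to 16508 infrarenally, in WT and KO respectively. For Timp2 the direction turned in the KO infrarenal pair on 3 of its other 5 probe sets, with log2 ratios of -0.28 (1433662_s_at, from 12158 to 10033), -1.17 and -1.54, and with the mean of all probe sets (-0.25). On the chosen probe sets, Timp1 and Timp2 were the members higher in all 4 pairs, as 16.4% of genes were. In the untreated KO infrarenal pool some other probe sets stood out, with 1420924_at of Timp2 at 1725 against 570 in WT and 1419088_at of Timp3 at 1134 against 656. The bright 1433662_s_at and the dimmer 1450040_at of Timp2 were higher in KO too (log2 0.81 and 0.56). Timp2's 1460287_at gave -0.10 and its near-background 1437081_at -0.38, and Timp3's 1449334_at and 1449335_at gave -0.08 and -0.07. The chosen probe sets of both genes differed by 1.15-fold and 1.01-fold between these pools.

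Genotype left most values close. On the chosen probe sets, none of the 5 members differed 2-fold between KO and WT in untreated suprarenal, untreated infrarenal or treated infrarenal pools. Of all genes, 1.86%, 1.70% and 1.17% did, in that order. In treated suprarenal pools, where 2.86% of genes did, Timp1 was 2.87-fold higher in KO, and the other 4 were lower by log2 -0.19 to -0.33. No member had the same sign in all 4 genotype pairs, where 4.83% of genes were higher in 4 of 4 and 6.88% lower. Untreated, Timp1 was lower in KO, at 398 against 667 suprarenally and 864 against 1106 infrarenally.

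Markers of other cells also differed between these pools. In the KO suprarenal treated pool the 6 neutrophil markers summed to 32715, against 897 in its WT partner, with S100a8 at 17385 and S100a9 at 15176. Those 2 genes made up almost the whole sum: the granule genes Ngp and Mpo, which mark neutrophil precursors, read 67.1 and 38.1 there. In the same comparison of pools 9 of 16 IL-6 family and AP-1 genes were at least 2-fold higher in KO, and Il6 was 4526 against 197. Of all genes, 2.86% differed 2-fold either way there. The 10 macrophage markers summed to 25660 and 21412 in untreated infrarenal pools and to 78307 and 82027 after CaAngII. The 6 lymphocyte markers were lower with CaAngII in the suprarenal pools, in sum going from 3830 to 484 in WT and from 5138 to 626 in KO, and were higher in the treated infrarenal pools (848 to 2749 and 843 to 1820). The 7 fibroblast markers summed higher with CaAngII in each pair. Suprarenally their sums went from 73069 to 84014 in WT and from 66365 to 80251 in KO. Infrarenally they went from 97709 to 116369 and from 98812 to 135229. The part of these cells in the Timp1 values was not tested.

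For Timp4 and Reck, the 8 smooth muscle markers summed to 94061 (WT) and 94600 (KO) in untreated infrarenal pools and to 52427 and 59826 in treated ones. The 6 endothelial markers went from 16816 to 9759 in WT and from 14623 to 9655 in KO. The 6 adipocyte markers went from 46960 to 18329 and from 47421 to 22545. Suprarenally the smooth muscle sums were 77647 and 66984 (WT) and 70212 and 62476 (KO), and the adipocyte sums 61351 and 51325 (WT) and 51453 and 42707 (KO). Their part in the values of Timp4 and Reck was not tested.

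On the chosen probe sets, 2-fold differences between the segments were found for Timp1 only. It was higher infrarenally in treated WT pools (3.89-fold) and untreated KO pools (2.17-fold). Some other probe sets passed 2-fold too. In untreated KO pools, 1433662_s_at of Timp2 read 4595 suprarenally and 12158 infrarenally, and 1419088_at of Timp3 read 517 and 1134. In treated KO pools, 1460287_at of Timp2 read 6778 and 14662. Of all genes, 9.54% and 20.8% differed 2-fold in untreated and treated WT pools, and 12.9% and 16.1% in KO pools. On the chosen probe sets Timp1 and Timp2 were higher infrarenally in all 4 pairs, as 21.0% of genes were. No member was lower in all 4, as 23.1% were. Timp1 differed by log2 0.40 to 1.96 and Timp2 by 0.29 to 0.90.

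The 3 synapsin genes were lower in the infrarenal than in the suprarenal pools in all 4 pairs, with sums of 2949 to 4427 suprarenally and 357 to 819 infrarenally. Timp1, which lies inside Syn1, thus went the other way between segments. In untreated pools Timp4, inside Syn2 (log2 0.96 in WT and 0.78 in KO), and Timp3, inside Syn3 (0.54 and 0.54), did so too. In treated pools Timp4 was lower infrarenally like its host (-0.93 and -0.73), and Timp3 gave -0.04 and 0.21. Adrenal and neuron markers also summed higher suprarenally, 24039 to 32674 against 2767 to 7538.

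Proteases accompanied Timp1 in the treated pools. Among MMPs, 7 of 12 in the WT infrarenal pair and 8 of 13 in the KO pair were at least 2-fold higher with CaAngII and none was 2-fold lower, with median log2 ratios of 1.54 and 2.02 against 0.00 and 0.07 over all genes. Suprarenally 1 of 10 (WT) and 4 of 11 (KO) were. Of all genes, 17.7% (WT) and 17.4% (KO) differed 2-fold either way infrarenally, and 3.61% and 5.13% suprarenally. Mmp3 went in the infrarenal pools from 2524 to 17799 in WT and from 2449 to 18185 in KO. Infrarenal Mmp2 went from 3904 to 12526 and from 3494 to 14170, and Mmp14 from 1268 to 7412 and from 1177 to 8238, in WT and KO. Infrarenal Mmp13 was 23.0 and 19.2 untreated and 5831 and 4547 treated. Adamts1 was lower there after treatment, from 5128 to 1930 in WT and from 5027 to 2426 in KO.

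**Figure D5:**
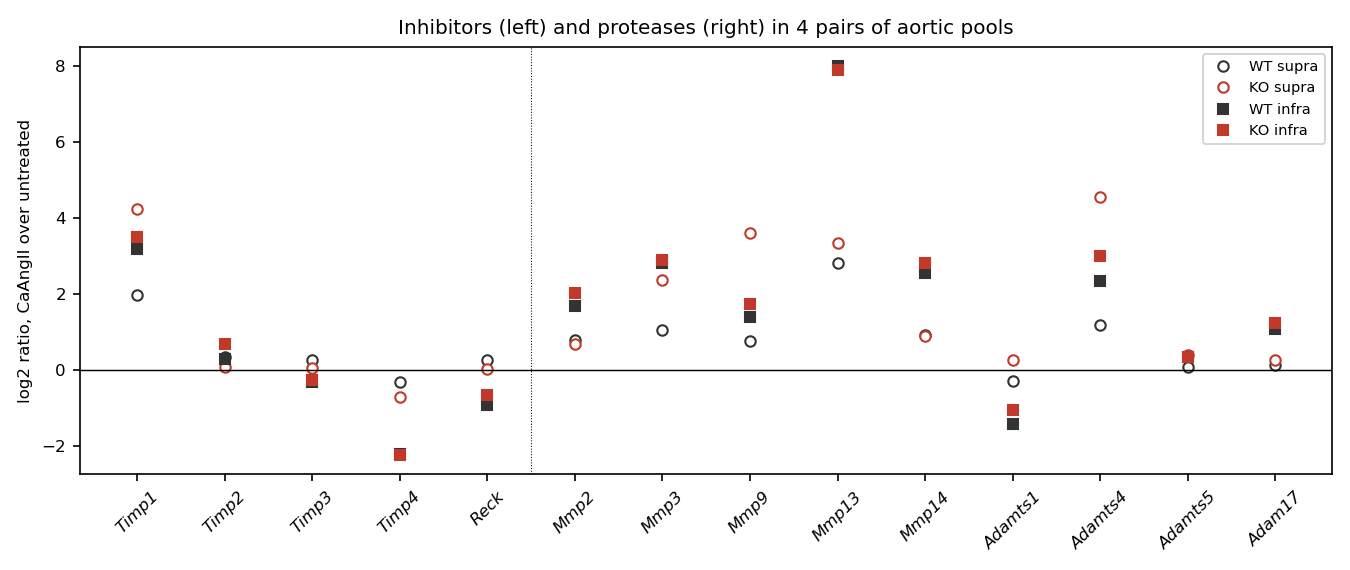
Log2 ratio of the CaAngII pool to the untreated pool for 5 inhibitors (left of the dotted line) and 9 proteases (right), open circles for suprarenal and filled squares for infrarenal pairs, black for WT and red for KO, 1 array on each side. Timp1 and the MMPs lie above 0 in all 4 pairs, Timp4 lies below 0 in all 4 and reaches -2.20 and -2.23 infrarenally, and Timp2 and Timp3 stay between -0.32 and 0.70.

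Over the 8 pools the genes most like Timp1 were Plat, the tissue plasminogen activator, Ccl9 and C5ar1 (r = 0.991, 0.990 and 0.988), and those most like Timp4 were 1110064A23Rik, Hey2 and Tmem47 (r = 0.995, 0.995 and 0.994). For Reck they were Niban1, Golim4 and Ttc28 (r = 0.987, 0.986 and 0.985), for Timp3 Jam2, Podxl and Ercc6l2 (r = 0.991, 0.984 and 0.980), and for Timp2 Sertad4, Zbed3 and Ctdsp2 (r = 0.997, 0.994 and 0.993). Between members, r was -0.81 for Timp1 and Timp4, 0.86 for Timp3 and Reck and 0.81 for Timp4 and Reck. The 8 pools share segment and treatment, and these are descriptions. Timp1 and Timp3, opposed in the cells at r = -0.94, gave r = -0.00 over the pools.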

How the data were processed

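The authors deposited 1 intensity per probe set and array on a linear scale. Affymetrix Expression Console is named per the submitters' processing notes, with no version or algorithm. Per the series' design text, there were 3 independent cultures without TNC and 4 with it, and each RNA had its own array. Whether arrays with and without TNF come from the same cultures is not stated, so p-values measure the spread between these arrays. The cell labels count hours from 23 to 36, and the 24 h of the design text was used. The titles of the TNC group read "TNC or TNF", and its treatment label was followed.

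Intensities were used on the log2 scale with no pseudocount. Of 45101 probe sets, 64 controls, 932 with several symbols and 9160 without a symbol were left out, leaving 34945 for 18193 genes. A gene was tested if its probe set reached the 30th percentile of an array on at least 3 of 14 cell arrays. One limma fit (version 3.58.1 under R 4.3.3) held all 4 cell groups, with 10 residual degrees of freedom. Replicate arrays correlated at 0.962 to 0.969, and the median SD within groups was 0.17 on the log2 scale. Same-numbered arrays of different groups did not deviate together: after group means were removed, the 19 such pairs correlated at -0.02 to 0.06, so numbers were not treated as pairs. Aortic counts cover genes that reached the 50th percentile of 1 or more arrays in the comparison. The number of arrays limits precision. The code was tested on simulated data.

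Members, lists and comparisons were chosen with earlier results of these data known. Named genes are the members, 9 proteases they are known to inhibit, up to 3 called genes of each sign per list, marker genes, and the 3 genes most like each member.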

Additional observations from a re-analysis of the deposited data

Results flagged for a closer look

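The effect of TNF on Timp1 was log2 1.69 without TNC and 0.24 with it, a difference of -1.46 (limma, adjusted p = 3.00e-06). The effect of TNF on Timp3 was -0.97 without TNC and -0.06 with it, a difference of 0.91 (limma, adjusted p = 0.00465). Both tests are of the difference itself. In the aorta, 3 patterns were flagged by sign alone, whatever the size. In each, every pair of one kind went one way and every pair of the other kind the opposite way. The share of all genes with such a pattern was not counted. None of these differences was tested, with 1 array per pool. Reck was lower with CaAngII in both infrarenal pairs (log2 -0.93 in WT and -0.67 in KO) and higher in the WT suprarenal pair (0.26). The KO suprarenal ratio was above 0 by only 0.02, from 1882 to 1911. The difference of the mean log2 ratios was -0.94. The infrarenal over suprarenal ratio of Reck differed between treated and untreated pools by the same -0.94, and in treated KO pools it was only -0.04. Timp3 had the same pattern with a difference of -0.46, which its other 3 probe sets did not share in the KO suprarenal pair. In the WT suprarenal pair 1419088_at did not share it either (-0.32). Timp4 was higher infrarenally than suprarenally without treatment and lower with it, a difference of -1.70. None of the 10 groups of 4 cell arrays, 2 for each member, passed Dixon's 95% critical value, and the nearest to it was Reck under TNC, where the gap was 0.824 of the range.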

How the results depend on the processing

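Alternatives were quantile normalization, median centring, no filter or a stricter one, the mean of a gene's probe sets or its most variable one, log2(value + 32), other variance models, fits of the compared groups only (which cannot give the interaction), the replicate number as a block and each array left out. Every call of Timp3 and Reck, and of Timp1 other than TNF with TNC, kept direction and side of the threshold in all of them. The uncalled Timp3 change for TNF with TNC had no stable sign, from -0.19 to 0.010 over arrays left out. Median centring moved the median of all genes by 0.11 for TNF without TNC, 0.17 for TNC without TNF and 0.21 for both factors, and the share of rises among calls from 41.2% to 57.4%, from 50.7% to 76.2% and from 47.9% to 71.4%. For TNC added to TNF that share went from 57.8% to 74.2%, and for the interaction from 52.1% to 39.0%.

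Timp1 with TNF added to TNC lost its call under quantile normalization (0.15), median centring (0.27), the most variable probe set, the 2 groups alone and the replicate block (each 0.24, adjusted p = 0.0542 with the block), and ranged from 0.19 to 0.28 with arrays left out (lost without TNC 1, 2 or 4 or both factors 1 or 2). The block changed no other call of a member. Timp2 with TNF lost its call under median centring (-0.14), the 2 groups alone (-0.25) and its most variable, dim probe set (-1.14), and ranged from -0.30 to -0.17 with arrays left out (lost without unstimulated 2 or 3 or TNF 2). Timp2 also lost its call for both factors under median centring (-0.21) and for TNF with TNC on that dim probe set (-2.09). It gained a call for TNC against TNF under quantile normalization (0.21) and the variance trend, plain or robust (0.19), and for TNC with TNF without TNF replicate 2 or replicate 1 of both factors (-0.25 to -0.12 over arrays left out). Timp4 lost its TNF call with the mean of its probe sets (-1.13), the second probe set (-0.999) and the robust trend (-1.26), and its call for both factors with the second probe set (-1.19). It gained one for TNC against TNF under quantile normalization (0.86) and median centring (0.79), with a range of 0.54 to 0.87 over arrays left out (gained without unstimulated 2, TNC 3 or both factors 4), and for TNF with TNC without both factors 4 (-0.83 to -0.55). The stricter filter left Timp4 untested. The Reck interaction (-0.29) passed with the stricter filter and the variance trend, plain or robust, and ranged from -0.34 to -0.20 (passed without unstimulated 2). Counts of called genes moved with the most variable probe set, to 3363, 2022, 3110, 2643 and 2784 (TNF without and with TNC, TNC without and with TNF, TNC against TNF) and 1486 for the interaction, and to 1905 for the interaction with the mean of probe sets, against 5370, 3431, 4941, 4387, 4440 and 2923. In an alternative chosen after seeing the data, each probe set fitted alone, 1460287_at of Timp2 reversed (0.089 with TNF) and lost the calls for TNF with TNC (-0.12) and both factors (-0.015). The dimmer 1450040_at and 1420924_at gained calls for TNC alone (-0.43 and -0.41) and TNC against TNF (0.31 and 0.39). With the mean of probe sets, in which the near-background 1437081_at counts fully, Timp2 moved in 6 aortic pairs: to -0.25 for CaAngII in KO infrarenal pools, to 0.39 and 0.38 for genotype in treated suprarenal and untreated infrarenal pools, and to 1.28, 1.32 and 1.41 for segment in untreated WT, treated WT and untreated KO pools. The cause of these moves was not tested. Values near background, as for Timp4 in cells, limit the precision of a fold.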
